A study of Mus musculus with 28 samples.

Results

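The genes described here are 9 genes that set the direction of glucose metabolism in the liver. They are Pck1, G6pc and Fbp1 of gluconeogenesis, Gckr, Pklr and Khk of sugar use, the glucose transporter gene Slc2a2, the transcription factor gene Foxo1, and Pdk4, a kinase gene of pyruvate oxidation. They were chosen by symbol, and all 9 were found among the 36072 gene symbols of the count files. RNA was read from the livers of 14 female mice after 12 weeks of a high-fat diet (HFD) rich in cholesterol. Group 1 held 7 Apoe-/- mice, labelled WT by the depositors although they lack Apoe, and group 2 held 7 Mif-2-/-Apoe-/- mice, labelled DKO. Both groups therefore lack Apoe, the apolipoprotein that clears remnant lipoproteins, and both had the same diet, so no lean or Apoe-proficient liver is part of the comparison. The Mif-2 deletion is global, not restricted to hepatocytes, and the diet began at 8 weeks of age.

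The liver makes glucose from lactate, glycerol and amino acids by running glycolysis backwards, and at its irreversible steps it uses separate enzymes. PEPCK (Pck1) makes phosphoenolpyruvate and is opposed by pyruvate kinase (Pklr). Fructose-1,6-bisphosphatase (Fbp1) is opposed by phosphofructokinase, whose liver subunit is Pfkl. Glucose-6-phosphatase (G6pc) releases glucose at the last step. Glucagon, acting through cAMP, and glucocorticoids raise transcription of gluconeogenic genes in fasting, whereas insulin removes FOXO1 from the nucleus and lowers it. Sugars raise Pklr, Khk and G6pc through the carbohydrate response factor ChREBP. The comparison asks whether livers without MIF-2, a cytokine encoded by Ddt and related to macrophage migration inhibitory factor, differ in the transcripts of these genes.

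The promoters of the 3 gluconeogenic enzymes are shown because they are the control regions of the genes whose levels are compared below. Each sequence is the stretch just before the transcription start given by RefSeq on GRCm38.p6, 5′ to 3′ on the strand of the gene, and capitals mark every match to a motif that was searched for.
Pck1, chr2:173152953-173153072, plus strand: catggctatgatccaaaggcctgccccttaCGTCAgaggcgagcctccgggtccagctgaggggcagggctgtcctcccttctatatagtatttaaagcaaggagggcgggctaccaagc
G6pc, chr11:101367596-101367715, plus strand: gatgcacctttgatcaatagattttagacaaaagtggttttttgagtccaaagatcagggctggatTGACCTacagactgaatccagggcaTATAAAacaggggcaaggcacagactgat
Fbp1, chr13:62888283-62888402, minus strand: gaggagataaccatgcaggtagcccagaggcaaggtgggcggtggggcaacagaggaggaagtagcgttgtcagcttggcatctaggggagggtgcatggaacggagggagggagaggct

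In Pck1 the capitals mark TGACG on the opposite strand, the core of the cAMP response element, at bases -90 to -86 from the start. In G6pc they mark AGGTCA, a nuclear receptor half-site, on the opposite strand at bases -54 to -49, and TATAAA, the TATA box, at bases -29 to -24. The Fbp1 stretch held none of the 6 motifs searched for on both strands. All 9 genes were matched to the RefSeq promoter table, with 10 windows because Pklr has 2 starts. Over the 32851 windows of the table, TGACG was present in 20.8% and in the windows of Pck1 and Khk, and TATAAA was present in 13.6% and in those of G6pc and Pklr. The E-box CACGTG, the kind of site that ChREBP reads in pairs, was present in 7.15% of windows and in that of Khk, at bases -71 to -66, where it shares bases with the TGACG of that promoter. AGGTCA was present in 16.3% and in the windows of G6pc, Pklr and Slc2a2. The FOXO site GTAAACA (3.65% of all windows) and the whole cAMP response element TGACGTCA (1.79%) were in 0 of the 10 windows, which says only that these letters are not in these windows.

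Each mouse gave 2 libraries, which were summed, with 1336787 to 2715022 counts per mouse. Ddt, the deleted gene, had 84 to 316 counts in the Apoe-/- mice and 5 to 12 in the Mif-2-/-Apoe-/- mice, so every liver matched its label. Of the 12 hepatocyte markers, 11 were in the files, and they summed to 43755 to 68391 CPM (counts scaled to the size of the library after TMM adjustment) in every mouse of both groups. Ribosomal RNA took 17.7% of counts in Mif-2-/-Apoe-/- mouse 4, the lowest share, and 51.8% in Mif-2-/-Apoe-/- mouse 2, the highest. Mif-2-/-Apoe-/- mouse 3 stood apart in another way. Its 12 skeletal muscle marker genes summed to 9389 CPM, against 25.9 to 72.1 CPM in the other 13 mice. Pdk4, Pkm and Des are given below with and without this mouse, and other results include it unless stated. In bulk liver RNA, fewer cells of a type and less RNA per cell cannot be told apart.

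None of the 9 genes passed the test between the genotypes. Of 9684 genes tested with edgeR, 21 passed at an adjusted p below 0.05, which is 0.217% (0.134% with higher and 0.0826% with lower levels in Mif-2-/-Apoe-/- mice), and 0 of these were among the 8 of the 9 genes that could be tested. Pdk4 had too few counts to be tested. Of the 8, Fbp1 alone had an unadjusted p below 0.05 (12.9% of all genes tested did). Over all 9684 genes, 714 had such a p with a higher and 532 with a lower mean in Mif-2-/-Apoe-/- mice. Counts within the lists below are to be read beside these. With DESeq2, run on the same counts, 1 of the 8 that got an adjusted p passed, again Fbp1, beside 2.46% of the 4601 genes with one. In no gene of the 9 were the levels of the groups separate, as they were in 0.279% of genes tested. Of the log2 fold changes (log2FC, Mif-2-/-Apoe-/- over Apoe-/- mice), 5 of 8 were above 0, with a median of 0.20 beside 0.01 over all genes tested.

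**Figure D1:**
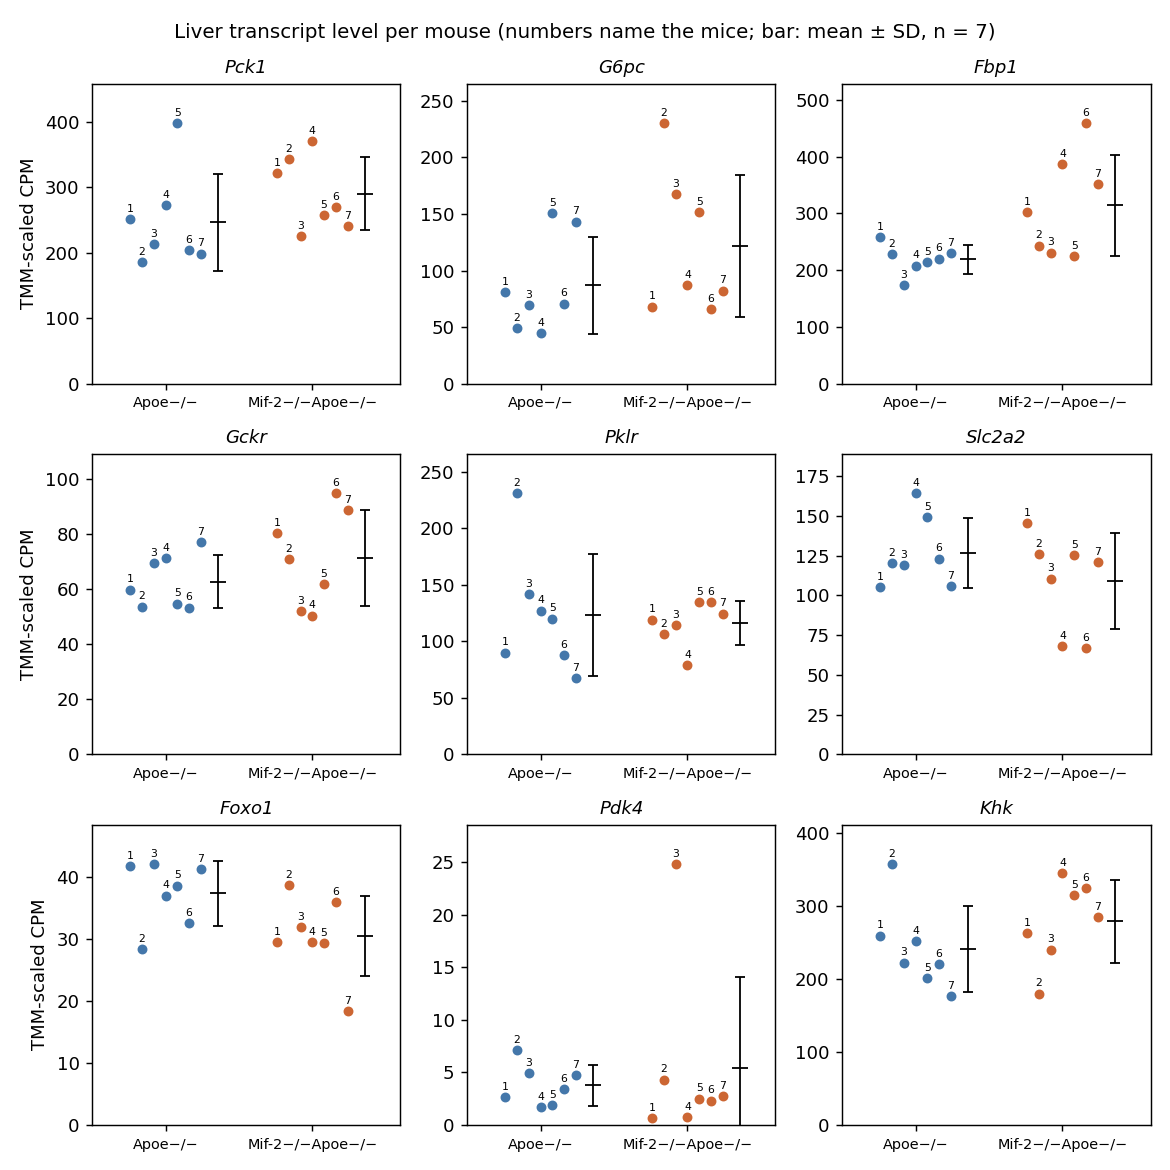
TMM-scaled CPM (y axis, linear, from 0) of the 9 genes in each of the 14 mice, grouped by genotype on the x axis, with numbers naming the mice and bars giving the mean ± SD of 7 mice. The groups overlap in every panel, the Mif-2-/-Apoe-/- levels of Fbp1 reach 459.5 CPM against at most 258 CPM in Apoe-/- mice, and 1 mouse stands alone in the panels of Pck1, Pklr and Pdk4.

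Fbp1 (ENSMUSG00000069805.10, chromosome 13, 62864753 to 62888282, minus strand) encodes the enzyme that turns fructose 1,6-bisphosphate into fructose 6-phosphate. In the Apoe-/- mice its lowest level was 174 CPM, the median 220 CPM and the highest 258 CPM. In the Mif-2-/-Apoe-/- mice the lowest was 225 CPM, the median 302 CPM and the highest 459.5 CPM. All 7 Mif-2-/-Apoe-/- mice were above the mean of the Apoe-/- mice, and 4 of them (mice 1, 4, 6 and 7) were above every Apoe-/- mouse. The group means were 219 ± 25.7 and 314 ± 89.1 CPM (SD, n = 7 each).

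The log2FC of Fbp1 was 0.52 (SE 0.17, 95% interval 0.17 to 0.87), with an unadjusted p of 0.00524 and an adjusted p of 0.198 by edgeR. DESeq2 gave a log2FC of 0.56 and an adjusted p of 0.0475, and 0.0534 with the study's own gene filter. With library totals in place of TMM, edgeR gave 0.41 (95% interval -0.005 to 0.835, adjusted p = 0.375). With 1 mouse left out the fold change ranged from 0.41 (without Mif-2-/-Apoe-/- mouse 6) to 0.59, and the lowest adjusted p was 0.0782, without Mif-2-/-Apoe-/- mouse 2. The mice with the highest Fbp1 levels were also those with the highest levels of Fgb, the acute-phase fibrinogen beta chain. Fgb was at 5414 CPM in Mif-2-/-Apoe-/- mouse 4, 3302 CPM in mouse 6 and 1495 CPM in mouse 7, against 806 to 1329 CPM in the other 11 mice. The part of an acute-phase response in the Fbp1 levels was not tested.

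G6pc (ENSMUSG00000078650.2, chromosome 11, 101367561 to 101377903, plus strand) encodes the catalytic subunit that releases free glucose. Its levels lay in a low and a high range in both groups. Among Apoe-/- mice the lowest was 44.8 CPM, the median 70.8 CPM and the highest 151 CPM, with mice 5 and 7 at 151 and 143 CPM and the other 5 at no more than 80.7 CPM. Among Mif-2-/-Apoe-/- mice the lowest was 65.9 CPM, the median 87.0 CPM and the highest 230 CPM. Mice 2, 3 and 5 of this group were at 230, 167 and 152 CPM, above every Apoe-/- mouse, and the other 4 lay within the Apoe-/- range. This holds for TMM-scaled levels, and mouse 5 was at 151.8 CPM against 151.0 CPM in Apoe-/- mouse 5. Mif-2-/-Apoe-/- mouse 2 had the lowest TMM factor of the 14 mice (0.71), which raises its scaled level. Unscaled, it had 214 G6pc counts of 1336787 in total, and Apoe-/- mouse 5 had 402 of 2433432.

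The means of G6pc were 87.0 ± 42.9 and 122 ± 62.6 CPM, and the coefficient of variation was 49.3% and 51.4%. The log2FC was 0.48 (SE 0.30, 95% interval -0.15 to 1.10, adjusted p = 0.495, edgeR), so the interval reaches from below 0 to above 1. Without Mif-2-/-Apoe-/- mouse 2 it was 0.26, and without Apoe-/- mouse 5 it was 0.67. Mouse 2 also had the highest ribosomal RNA share and the lowest total count of the 14 mice, and its G6pc level rests on 214 counts.

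Pck1 (ENSMUSG00000027513.11, chromosome 2, 173153048 to 173159273, plus strand) encodes the cytosolic enzyme that commits oxaloacetate to glucose. Levels in Apoe-/- mice had a lowest value of 186 CPM, a median of 214 CPM and a highest of 398 CPM. Those in Mif-2-/-Apoe-/- mice had a lowest of 226 CPM, a median of 270 CPM and a highest of 371 CPM. The highest level of all 14 mice was in Apoe-/- mouse 5, and the other 6 Apoe-/- mice were at 186 to 273 CPM. That mouse also had the highest G6pc level of its group.

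The means of Pck1 were 247 ± 73.7 and 290.1 ± 55.4 CPM, with a log2FC of 0.23 (SE 0.18, 95% interval -0.13 to 0.60, adjusted p = 0.575, edgeR). Without Apoe-/- mouse 5 the Apoe-/- mean was 221 ± 33.7 CPM and the fold change 0.39, and the lowest adjusted p with any mouse left out was 0.321, without that same mouse.

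**Figure D2:**
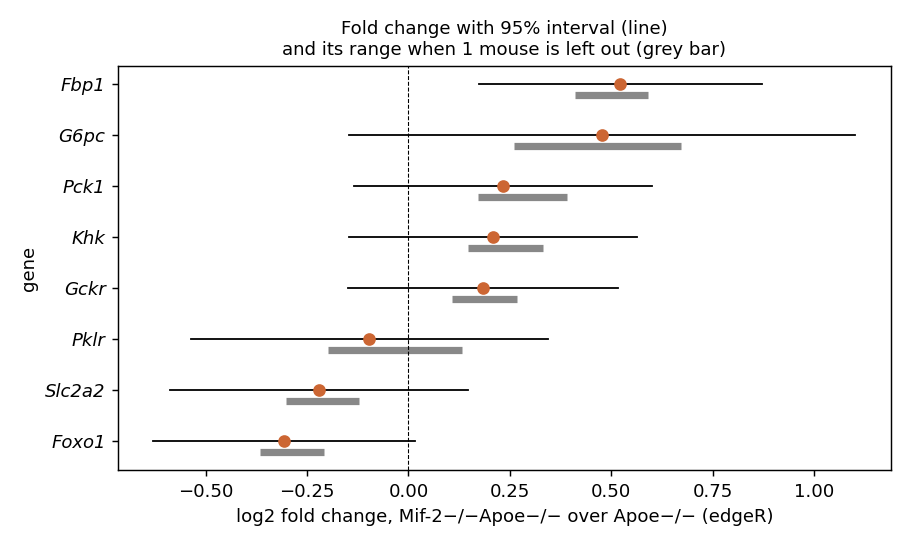
Log2 fold change of Mif-2-/-Apoe-/- over Apoe-/- mice on the x axis for the 8 genes tested on the y axis, as points with the 95% interval (black line) and the range of the fold change when 1 mouse is left out (grey bar). The interval of Fbp1, 0.17 to 0.87, is the one that does not reach 0, and the grey bar of Pklr, from -0.20 to 0.13, crosses it.

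Foxo1 (ENSMUSG00000044167.6, chromosome 3, 52268336 to 52353221, plus strand) encodes the insulin-sensitive factor that drives Pck1 and G6pc transcription. In Apoe-/- mice its lowest level was 28.4 CPM, the median 38.7 CPM and the highest 42.2 CPM. In Mif-2-/-Apoe-/- mice the lowest was 18.4 CPM, the median 29.5 CPM and the highest 38.8 CPM. Of the Mif-2-/-Apoe-/- mice, 6 of 7 were below the Apoe-/- mean, and mouse 7 was below every Apoe-/- mouse. Foxo1 had a log2FC of -0.31 (SE 0.16, 95% interval -0.63 to 0.02, adjusted p = 0.398, edgeR), and -0.21 without mouse 7. Foxo1 rests on 34 to 103 counts per mouse, and its level varied as much between the 2 libraries of a mouse as between mice.

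Foxo1 mRNA does not measure FOXO1 activity, which insulin sets by phosphorylation, so 18 genes known as FOXO1 targets in liver were listed beside it. Of the 16 tested, 0 passed with edgeR, while 6 had an unadjusted p below 0.05, all with higher means in Mif-2-/-Apoe-/- mice, and the median log2FC was 0.32. The list holds Pck1, G6pc and Pdk4 themselves. Igfbp1, an insulin-repressed binding protein of insulin-like growth factors, was at 22.0 ± 10.1 and 50.7 ± 18.1 CPM (log2FC 1.20, SE 0.26, adjusted p = 0.0537, edgeR). All 7 Mif-2-/-Apoe-/- mice were above the Apoe-/- mean of Igfbp1 and 6 above every Apoe-/- mouse, and it passed in 6 of the 14 fits with 1 mouse left out. DESeq2 called 2 of the 10 listed genes it gave an adjusted p, Igfbp1 (log2FC 1.24, adjusted p = 0.00369) and Angptl8 (log2FC 1.06, adjusted p = 0.0475).

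Gadd45a, a growth arrest gene that also responds to stress, had a log2FC of 1.49 (SE 0.34, adjusted p = 0.0789, edgeR) and passed in 2 of the 14 fits with 1 mouse left out, those without Mif-2-/-Apoe-/- mouse 2 or mouse 4. Angptl8, an insulin-induced regulator of lipoprotein lipase, had 1.04 (SE 0.31, adjusted p = 0.164). Cdkn1a, a cell cycle inhibitor, had a log2FC of 1.39 (SE 0.55, adjusted p = 0.289) that was 0.62 without Mif-2-/-Apoe-/- mouse 5. Of the Mif-2-/-Apoe-/- mice, 2 of 7 were above and 3 below every Apoe-/- mouse of Cdkn1a, and their median was lower, at 7.66 against 10.1 CPM. Immediate early genes, which answer stress and handling, were listed beside these targets. Of 8 tested, 7 had an unadjusted p below 0.05, all with higher means in Mif-2-/-Apoe-/- mice, and 1 passed, Zfp36 (14.8 ± 2.62 and 29.4 ± 9.07 CPM, log2FC 0.98, SE 0.19, adjusted p = 0.0235, edgeR). Zfp36 passed in 7 of the 14 fits with 1 mouse left out. DESeq2 called 3 of the 5 it gave an adjusted p, Zfp36 (0.000965), Egr1 (0.0237) and Junb (0.0349). The summed level of the 16 listed was 102 to 226 CPM in Apoe-/- mice and 179 to 373 CPM in Mif-2-/-Apoe-/- mice. Their part in the levels of the FOXO1 targets was not tested.

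Pklr (ENSMUSG00000041237.12, chromosome 3, 89136142 to 89146784, plus strand) encodes the liver pyruvate kinase, the last step of glycolysis. In Apoe-/- mice its lowest level was 67.6 CPM, the median 120.2 CPM and the highest 231 CPM. In Mif-2-/-Apoe-/- mice the lowest was 79.2 CPM, the median 119 CPM and the highest 135 CPM, all within the Apoe-/- range. Apoe-/- mouse 2, at 231 CPM, lay above the other 13 mice, of which none exceeded 142 CPM. The log2FC was -0.10 (SE 0.21, 95% interval -0.54 to 0.34, adjusted p = 0.877, edgeR), and 0.13 without Apoe-/- mouse 2, so 1 mouse set its sign. That mouse also had the highest level of Khk.

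Khk (ENSMUSG00000029162.15, chromosome 5, 30921431 to 30931248, plus strand) encodes ketohexokinase, which brings fructose into metabolism. Among Apoe-/- mice its lowest level was 177 CPM, the median 222 CPM and the highest 357 CPM. Among Mif-2-/-Apoe-/- mice the lowest was 179.8 CPM, the median 285 CPM and the highest 345 CPM, so all 7 lay within the Apoe-/- range although 5 were above its mean. For Khk the log2FC was 0.21 (SE 0.17, 95% interval -0.15 to 0.56, adjusted p = 0.601, edgeR), and 0.33 without Apoe-/- mouse 2.

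Gckr (ENSMUSG00000059434.9, chromosome 5, 31297443 to 31327314, plus strand) encodes a regulatory protein of hepatic glucose use. In Apoe-/- mice its lowest level was 53.4 CPM, the median 60.0 CPM and the highest 77.1 CPM. In Mif-2-/-Apoe-/- mice the lowest was 50.4 CPM, the median 71.1 CPM and the highest 94.96 CPM. Of these 7 mice, 3 were above and 2 below every Apoe-/- mouse, so the spread was wider on both sides. Gckr had a log2FC of 0.18 (SE 0.16, 95% interval -0.15 to 0.52, adjusted p = 0.629, edgeR), and 0.11 without Mif-2-/-Apoe-/- mouse 6. It was 0.28 in the first library alone and 0.04 in the duplicate library alone.

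Slc2a2 (ENSMUSG00000027690.13, chromosome 3, 28697903 to 28731359, plus strand) encodes GLUT2, the carrier that lets glucose into and out of hepatocytes. Its lowest level in Apoe-/- mice was 105 CPM, the median 121 CPM and the highest 164 CPM. The lowest in Mif-2-/-Apoe-/- mice was 66.6 CPM, the median 121 CPM and the highest 146 CPM. Mice 4 and 6 of this group, at 68.2 and 66.6 CPM, were below every Apoe-/- mouse, and they are the pair with the highest levels of Fbp1 and Fgb. The log2FC was -0.22 (SE 0.18, 95% interval -0.59 to 0.15, adjusted p = 0.594, edgeR), and -0.12 without mouse 4.

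Pdk4 (ENSMUSG00000019577.6, chromosome 6, 5483351 to 5496309, minus strand) encodes a kinase that shuts pyruvate dehydrogenase in fasting and spares pyruvate for glucose synthesis. It had 3 to 19 counts in the Apoe-/- mice. In the Mif-2-/-Apoe-/- mice it had 49 counts in mouse 3 and 1 to 5 in the other 6. In Apoe-/- mice the lowest level was 1.66 CPM, the median 3.37 CPM and the highest 7.09 CPM. In Mif-2-/-Apoe-/- mice the lowest was 0.61 CPM, the median 2.50 CPM and the highest 24.8 CPM. Mouse 3 was high in both of its libraries, with 13 and 36 counts.

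The means of Pdk4 were 3.76 ± 1.95 and 5.43 ± 8.65 CPM with mouse 3 (difference 1.66 CPM, two-sided exact permutation p = 0.938), and 3.76 ± 1.95 and 2.19 ± 1.38 CPM without it (difference -1.57 CPM, exact permutation p = 0.127). The direction thus turned on 1 mouse. In an edgeR fit without a filter on low counts the log2FC was 0.57 (adjusted p = 0.565), and -0.90 without mouse 3 (adjusted p = 0.494). Neither passed. DESeq2, given all mice, returned -0.76 under its default settings, which can replace an outlying count before the fit. Whether the count of mouse 3 was replaced was not checked, so this value is not read as one that includes that mouse.

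In mouse 3 all 12 skeletal muscle markers were at their highest of the 14 mice, and none of the 12 was at 0 over the series. Acta1, the skeletal actin, was at 1732 CPM there and at 2.61 to 13.0 CPM elsewhere. Both libraries held them, with 7949 and 10570 summed counts. Sugar metabolism genes used by muscle were high in the same mouse, among them Aldoa (582 CPM against at most 113 CPM), Eno3 (141 against at most 5.57 CPM), Pfkm (60.8 against at most 5.38 CPM) and Slc2a4, the insulin-dependent transporter (48.7 against at most 3.07 CPM). Of the 9 genes, Pdk4 was the 1 that was highest or lowest in mouse 3. The part of muscle RNA in its Pdk4 level was not tested.

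**Figure D3:**
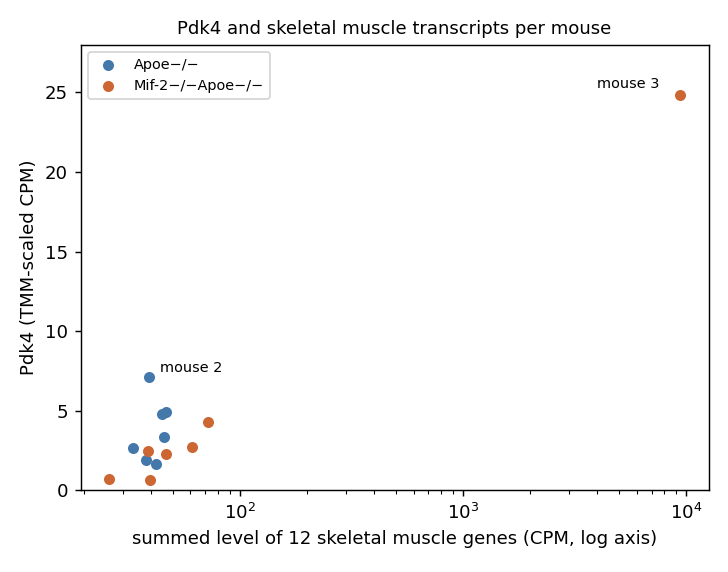
Pdk4 level (y axis, TMM-scaled CPM) against the summed level of 12 skeletal muscle genes (x axis, CPM on a log axis), 1 point per mouse, coloured by genotype, with the points above 7 CPM of Pdk4 named. Mif-2-/-Apoe-/- mouse 3 lies at 9389 CPM of muscle genes and 24.8 CPM of Pdk4, while the other 13 mice lie at no more than 72.1 and 7.09 CPM.

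The opposing enzymes of 2 substrate cycles were then compared within each liver, since a ratio of counts of 2 transcripts in 1 mouse does not depend on how libraries are scaled. Ratios are log2 of counts plus 0.5, and since read tags are not corrected for capture, the difference between groups is read and not the size of a ratio.

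For Fbp1 to Pfkl, Apoe-/- mice had a lowest ratio of 3.28, a median of 4.13 and a highest of 4.41, and Mif-2-/-Apoe-/- mice 3.62, 4.34 and 4.94. Of the Mif-2-/-Apoe-/- mice, 6 of 7 were above the Apoe-/- mean, with mouse 5 below it. The means were 3.95 ± 0.44 and 4.34 ± 0.39, a difference of 0.39 (two-sided exact permutation p = 0.0886, adjusted over the 3 ratios computed 0.266). Without mouse 5 the difference was 0.51 (exact permutation p = 0.0286, not adjusted), and with any other mouse left out the exact p was above 0.05. Pfkl rests on 10 to 54 counts per mouse.

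For Pck1 to Pklr, Apoe-/- mice had a lowest ratio of -0.31, a median of 1.22 and a highest of 1.73, and Mif-2-/-Apoe-/- mice 0.93, 1.00 and 2.22. The lowest was in Apoe-/- mouse 2, whose Pklr was high, and the highest in Mif-2-/-Apoe-/- mouse 4. The means were 1.05 ± 0.71 and 1.31 ± 0.49, a difference of 0.26 (exact permutation p = 0.456, adjusted 0.456), which shrank to 0.04 without Apoe-/- mouse 2. The smallest p this design allows is 0.000583, from 3432 assignments of the mice.

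**Figure D4:**
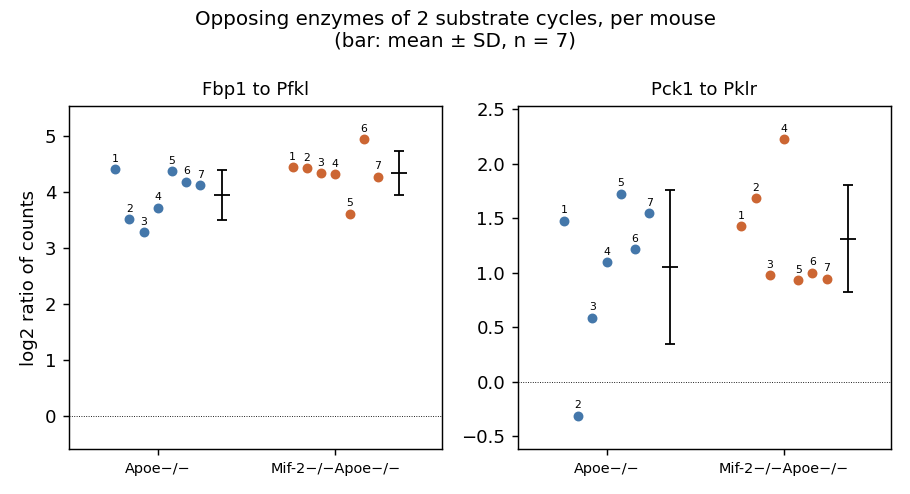
Log2 ratio of counts (y axis) of the gluconeogenic to the glycolytic enzyme of 2 substrate cycles in each of the 14 mice, grouped by genotype, with numbers naming the mice and bars giving the mean ± SD of 7 mice. The groups overlap in both panels, and the differences of the means are 0.39 and 0.26.

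The 2 libraries of each mouse show how well each level was measured. The SD between libraries of a mouse was 0.08 for Fbp1 and 0.09 for Pck1 on the log2 scale, against an SD between mice of a group of 0.31 and 0.33, so their spread was mostly between mice. For G6pc it was 0.29 against 0.69, for Pklr 0.21 against 0.45 and for Slc2a2 0.20 against 0.37. For Khk it was 0.21 against 0.32 and for Gckr 0.20 against 0.30. For Foxo1 (0.32 against 0.29) and Pdk4 (1.14 against 1.23) the libraries of 1 mouse differed about as much as mice did. The lowest library counts were 14 for Foxo1 and 0 for Pdk4.

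The 9 genes did not vary as a block. After centring log2(CPM + 1) within each genotype, 17 of the 36 pairs had a positive and 19 a negative correlation over the 14 mice, and 0 of 36 passed after adjustment for 36 pairs, while 3 had an unadjusted permutation p below 0.05. All pairs share the libraries and their scaling, and 8 of the 36 changed sign when CPM were taken over library totals instead.

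G6pc and Khk ran in opposite directions (Pearson r = -0.73, permutation p = 0.00404, adjusted 0.0850; Spearman rho = -0.69, p = 0.0108, adjusted 0.194), with r = -0.77 in Apoe-/- and -0.69 in Mif-2-/-Apoe-/- mice. It was -0.59 without the 2 mice farthest from the median of G6pc and -0.44 over library totals. Khk also had an r of -0.76 with the ribosomal RNA share (permutation p = 0.00362, adjusted 0.0977 over 27 such relations) and a rho of -0.65 (p = 0.0168, adjusted 0.227). This r was -0.61 without the 2 mice farthest from the median of that share. The part of that share in the relation of Khk to G6pc was not tested. Of the 27 relations, 0 passed and 3 had an unadjusted p below 0.05. Foxo1 with Malat1, a nuclear-retained RNA, had r = 0.73 (permutation p = 0.00805, adjusted 0.109). Gckr with the total count had r = -0.65 (permutation p = 0.0201, adjusted 0.181).

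Pck1 and Pdk4 had r = -0.61 (permutation p = 0.00472, adjusted 0.0850) and rho = -0.74 (p = 0.00429, adjusted 0.154). Here r was -0.82 in Apoe-/- and -0.65 in Mif-2-/-Apoe-/- mice, and -0.60 without the 2 farthest mice, Apoe-/- mouse 5 and Mif-2-/-Apoe-/- mouse 4. In each pair the 2 mice left out are those farthest from the median of the gene named first. Mif-2-/-Apoe-/- mouse 3, which stood apart in Pdk4, thus stayed in, and r over both groups without it was not computed. Pdk4 rests on 1 to 49 counts per mouse. Fbp1 and Slc2a2 had r = -0.66 (permutation p = 0.0388, adjusted 0.465) and rho = -0.66 (p = 0.0233, adjusted 0.280), with r = -0.37 in Apoe-/- and -0.73 in Mif-2-/-Apoe-/- mice and -0.47 without the 2 farthest mice. Over library totals r was -0.53 for Pck1 with Pdk4 (permutation p = 0.0265, adjusted 0.318) and -0.28 for Fbp1 with Slc2a2 (permutation p = 0.413, adjusted 0.743). Pck1 and G6pc, which FOXO1 and cAMP both drive, had r = 0.20 (permutation p = 0.520, adjusted 0.757) and rho = 0.05 (p = 0.860, adjusted 0.904), with -0.05 without the 2 farthest mice and 0.11 over library totals.

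**Figure D5:**
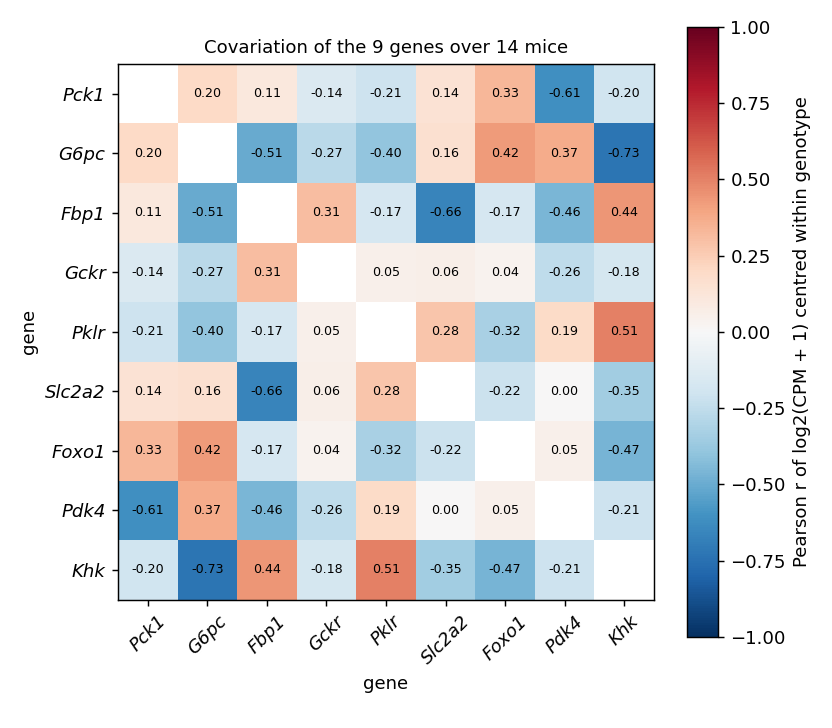
Pearson correlation over 14 mice of log2(CPM + 1), centred within genotype, for each pair of the 9 genes on both axes, with red for positive and blue for negative values. The deepest blue is G6pc with Khk at -0.73, and 0 of the 36 pairs passed after adjustment.

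The genes whose levels ran most like each of the 9 over the 14 mice, among tested genes of at least 20 CPM and given as a description, were as follows. Fbp1 was closest to Cpn2, a carboxypeptidase N subunit (r = 0.93), and Ldha, the lactate dehydrogenase subunit that interconverts lactate and pyruvate (r = 0.92). G6pc was closest to Ep300, a histone acetyltransferase (r = 0.89), and Setd2, a histone methyltransferase (r = 0.88). Khk was closest to Fads1, a fatty acid desaturase (r = 0.94), and Dbi, an acyl-CoA binding protein (r = 0.92). Foxo1 was closest to Kdm5c, a histone demethylase (r = 0.91), and Safb, a nuclear scaffold protein (r = 0.90). Without the 2 mice farthest from the median of Foxo1, these were 0.79 and 0.72. The part of the relation of Foxo1 to Malat1 in them was not tested. Pck1 had the lowest first value, with Ttc38 (r = 0.79) and Gm15542 (r = 0.77, and 0.54 without the 2 farthest mice).

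Gckr was closest to Gm26520 (r = 0.88) and Ptbp3 (r = 0.87), Pklr to Gm11924 (r = 0.85) and Npepps (r = 0.84), and Slc2a2 to Ctps2 (r = 0.86) and Gstt2 (r = 0.85). Pdk4 was closest to Ahnak (r = 0.93) and Cryab, a chaperone abundant in muscle (r = 0.90), with r of 0.74 and 0.68 without the 2 mice farthest from the median of Pdk4.

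Around the 9 genes, 0 of the tested genes in any of the 11 pathway lists passed with edgeR. DESeq2 called 5 of them, all with higher levels in Mif-2-/-Apoe-/- mice. They were Fbp1, Got1 (log2FC 0.93, adjusted p = 0.00833), Ldha (0.61, adjusted p = 0.0417), Igfbp1 and Angptl8. Of genes with an adjusted p, these were 2 of 20 in gluconeogenesis and substrate entry, 1 of 10 in glycolysis and 2 of 10 FOXO1 targets. Over all genes, DESeq2 called 2.46% of the 4601 with an adjusted p, 88 with higher and 25 with lower levels. Of 20 tested genes of gluconeogenesis and substrate entry, 6 had an unadjusted p below 0.05 with a higher and 2 with a lower mean in Mif-2-/-Apoe-/- mice, and the median log2FC was 0.24. Got1, the cytosolic aspartate aminotransferase, was at 46.0 ± 12.0 and 85.7 ± 28.6 CPM, with 6 of 7 Mif-2-/-Apoe-/- mice above every Apoe-/- mouse (log2FC 0.89, SE 0.22, adjusted p = 0.108, edgeR). Got1 passed in 1 of the 14 fits with 1 mouse left out, that without Mif-2-/-Apoe-/- mouse 5 (adjusted p = 0.0159). Tat, the tyrosine aminotransferase that glucocorticoids induce, had a log2FC of 0.66 (SE 0.20, adjusted p = 0.183). Slc37a4, the carrier that brings glucose 6-phosphate to G6PC, had 0.43 (SE 0.15, adjusted p = 0.245), with all 7 Mif-2-/-Apoe-/- mice above the Apoe-/- mean.

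Of 13 tested glycolytic genes, 3 had an unadjusted p below 0.05 with a higher and 1 with a lower mean, with a median of 0.11. Ldha was at 297 ± 32.5 and 439 ± 140.0 CPM (log2FC 0.56, SE 0.18, adjusted p = 0.188, edgeR). Pkm, the pyruvate kinase of muscle and other tissues, had a log2FC of 0.73 (SE 0.34, adjusted p = 0.376) that was 0.07 without Mif-2-/-Apoe-/- mouse 3. Hk1, a hexokinase of non-hepatocytes, had -0.67 (SE 0.31, adjusted p = 0.369), and Tpi1, triose phosphate isomerase, 0.36 (SE 0.17, adjusted p = 0.377).

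Of the 11 tested genes of pyruvate dehydrogenase and its control, 3 had an unadjusted p below 0.05, all with higher means in Mif-2-/-Apoe-/- mice. These were Mpc2 of the mitochondrial pyruvate carrier (log2FC 0.54, SE 0.20, adjusted p = 0.254), Pdhb, a subunit of the dehydrogenase (0.44, SE 0.15, adjusted p = 0.221), and its subunit Dld (0.39, SE 0.17, adjusted p = 0.320). Of 24 tested transcription factors and coactivators, 0 had an unadjusted p below 0.05 with a higher and 1 with a lower mean, Foxo3 (log2FC -0.39, SE 0.16, adjusted p = 0.296), a relative of Foxo1. Of 15 tested allosteric and kinase regulators, 1 had an unadjusted p below 0.05, Prkaca, the catalytic subunit of the cAMP-dependent kinase (-0.31, SE 0.15, adjusted p = 0.364).

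Of 8 tested genes of fructose and polyol metabolism, Mpi, mannose phosphate isomerase, had a log2FC of 0.87 (SE 0.24, adjusted p = 0.143, edgeR) and Sord, sorbitol dehydrogenase, -0.35 (SE 0.15, adjusted p = 0.319), the 2 with an unadjusted p below 0.05. Of 13 tested glycogen genes, 1 had an unadjusted p below 0.05, Ppp1r3b, the liver glycogen-targeting subunit of protein phosphatase 1 (0.32, SE 0.15, adjusted p = 0.361), and of 6 tested sugar transporters it was Slc50a1 (0.74, SE 0.30, adjusted p = 0.289). Of 17 tested ChREBP targets, 3 had an unadjusted p below 0.05 with a higher and 1 with a lower mean, with a median of 0.19. The 3 were Rgs16 (0.88, SE 0.32, adjusted p = 0.247), Arrdc4 (0.58, SE 0.24, adjusted p = 0.301) and Txnip (0.42, SE 0.18, adjusted p = 0.333). The lower 1 was Gpd1 (-0.36, SE 0.16, adjusted p = 0.330), with all 7 Mif-2-/-Apoe-/- mice below the Apoe-/- mean. Of 18 tested fasting and PPARA targets, 0 had an unadjusted p below 0.05 with a higher and 1 with a lower mean, with a median of 0.02, Cyp4a10, a fatty acid omega-hydroxylase (-0.70, SE 0.23, adjusted p = 0.201).

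Markers of cells and zones were measured in the same fit, because gluconeogenesis is strongest near the portal vein and glycolysis near the central vein. Of 13 tested periportal markers, 6 had an unadjusted p below 0.05 with a higher and 2 with a lower mean in Mif-2-/-Apoe-/- mice, with a median log2FC of 0.39 and 0 that passed with edgeR. Cps1 of the urea cycle had 0.76 (SE 0.22, adjusted p = 0.146, edgeR) and Hsd17b13, a lipid droplet protein, -0.64 (SE 0.16, adjusted p = 0.108). DESeq2 called 3 of the list, Hsd17b13 with lower levels (adjusted p = 0.0129) and Cps1 (0.0213) and Arg1, the arginase of the urea cycle (0.022), with higher levels. Their summed level was 2829 to 3997 CPM in Apoe-/- and 3277 to 4590.2 CPM in Mif-2-/-Apoe-/- mice. Of 13 tested pericentral markers 0 had an unadjusted p below 0.05, with a median of -0.10. The part of zonation in the levels of Fbp1, G6pc and Pck1 was not tested.

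Of the markers of other cell types, 1 of 12 tested Kupffer cell and macrophage markers passed, Timd4, a receptor of resident Kupffer cells (6.20 ± 3.07 and 14.9 ± 4.58 CPM, log2FC 1.30, SE 0.27, adjusted p = 0.0373, edgeR), which passed in 5 of the 14 fits with 1 mouse left out and got no adjusted p from DESeq2. In that list 4 of 12 had an unadjusted p below 0.05, all with higher means in Mif-2-/-Apoe-/- mice. Among them was Marco, a scavenger receptor (log2FC 1.08, adjusted p = 0.150, edgeR), which DESeq2 called (adjusted p = 0.0402). The summed level of that list was 936 to 1326 CPM in Apoe-/- and 816 to 1858 CPM in Mif-2-/-Apoe-/- mice. Of the endothelial, stellate, cholangiocyte, lymphocyte and neutrophil, adipocyte and pancreatic markers tested, 0 passed with edgeR, and no kidney tubule marker had enough counts to be tested. An unadjusted p below 0.05 was found for all 3 tested lymphocyte and neutrophil markers, with higher means and a median log2FC of 1.17. It was found for 3 of 12 endothelial markers with higher means and 1 with a lower mean, and for 1 of 10 stellate markers, Des. The log2FC of Des was 2.69 (SE 0.82, adjusted p = 0.176, edgeR), and -0.03 (adjusted p = 0.969) without Mif-2-/-Apoe-/- mouse 3, which held the skeletal muscle transcripts. The endothelial water channel gene Aqp1 (log2FC 0.59, adjusted p = 0.143, edgeR) was called by DESeq2 (adjusted p = 0.0218) and by edgeR without Mif-2-/-Apoe-/- mouse 2 (adjusted p = 0.0465). The part of these cells in the levels of the 9 genes was not tested. Of 14 tested clock genes, which also set the daily course of gluconeogenic transcripts, 0 passed with edgeR or DESeq2 and 2 had an unadjusted p below 0.05, with a median of -0.01.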

How the data were processed

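Liver RNA of 14 mice was read by prime-seq, which counts unique molecular identifiers on tags near the 3′ end of transcripts. The authors made the deposited counts with the zUMIs pipeline, without normalization, as whole numbers for 36072 gene symbols in each of 28 libraries; the submitters' processing notes name build mm10. Aligner settings, annotation release, use of strand and counting of introns are not given in the sources used here, so reads of overlapping genes cannot be told apart. CPM are not divided by length and are not compared between genes.

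Groups came from the sample labels. The 2 libraries of a mouse (541651 to 1531192 counts) were summed, and tests counted mice. Labels do not say which mice shared a cage or litter. Genes were filtered with filterByExpr, scaled by TMM and tested with edgeR 4.0.16 (quasi-likelihood F test, two-sided, Benjamini-Hochberg over 9684 genes). DESeq2 1.42.0 and limma 3.58.1 were alternatives. The study's model also held RNA integrity, whose values were not used here. SE and 95% intervals follow from the F statistic. Ratios used exact permutation tests, and correlations 100000 permutations within genotype. Scripts were tested on simulated data.

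The 9 genes and the lists were chosen with earlier results of these data known, so counts over a list are no independent support. Named genes are the 9, Ddt, Pfkl, the called and up to 4 lowest-p genes of a pathway list (2 of a marker list, not all printed) and the 2 genes most like each of the 9. A gene that the rule also takes, and the ratio that needs it, are not reported here. Acta1, Fgb, Arg1, Egr1, Junb and the sugar genes high in mouse 3 were named after their values were seen. Alternatives are other scaling, filters and tools, either library alone, ribosomal RNA share as a covariate, a replicate block and each mouse left out. Gene positions are from GENCODE M21 and promoters from RefSeq. Fits ran in R 4.3.3; tables and plots were made in Python 3.11.15 with matplotlib 3.10.9, scipy 1.17.1, pandas 2.3.3 and numpy 2.4.6.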

Additional observations from a re-analysis of the deposited data

Results flagged for a closer look

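In 22 groups of 7 mice (the levels of the 9 genes and 2 ratios in both genotypes), 2 levels lay far from the others of their group by Dixon's gap test, which chance alone would give in about 1 group of 20. Pck1 in Apoe-/- mouse 5 was at 398 CPM, while the other 6 Apoe-/- mice were at 186 to 273 CPM. Pdk4 in Mif-2-/-Apoe-/- mouse 3 was at 24.8 CPM, while the other 6 Mif-2-/-Apoe-/- mice were at 0.61 to 4.31 CPM; this mouse also held the skeletal muscle transcripts.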

How the results depend on the processing

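Of 208 alternative values of the fold changes of the 9 genes, 201 kept their direction and side of the threshold, as did 33 of 34 of the ratios. Fbp1 passed with DESeq2, which called 1 of the 9 genes, and in no other setting run. G6pc passed in 1 fit, without a filter on low counts and without Apoe-/- mouse 5 (log2FC 0.70, adjusted p = 0.0462). Pklr turned to 0.0010 with limma-voom, to 0.035 with the first library alone and, over mice left out, ranged from -0.20 to 0.13 (without Apoe-/- mouse 2). Pdk4 turned to -0.76 with DESeq2, -0.77 with the study's gene filter and -0.90 without Mif-2-/-Apoe-/- mouse 3 in the unfiltered fit, an alternative chosen after seeing the data. Both DESeq2 values come from its default settings, which can replace an outlying count such as that of mouse 3. Fbp1 to Pfkl ranged from 0.28 to 0.51 with 1 mouse left out, the last without Mif-2-/-Apoe-/- mouse 5. The 21 genes called became 344 without a filter on low counts, 113 with DESeq2, 106 with the study's filter and 11 with the first library alone, which tested 6602 genes, and 7 (without Mif-2-/-Apoe-/- mouse 6) to 118 (without Mif-2-/-Apoe-/- mouse 2) with 1 mouse left out. Leaving out Apoe-/- mouse 3, or mouse 4, gave 8 calls, and leaving out Apoe-/- mouse 1, or Mif-2-/-Apoe-/- mouse 7, gave 9. Beyond fewer samples or genes, the cause was not tested. Library totals in place of TMM moved the median of all genes to -0.10 and the split of calls from 13 higher and 8 lower to 7 and 14; the directions of the 8 tested genes did not turn, but Pck1 went from 0.23 to 0.10, Gckr from 0.18 to 0.08, Khk from 0.21 to 0.10, Pklr from -0.10 to -0.23 and Slc2a2 from -0.22 to -0.34. With the duplicate library alone Khk was 0.08 and Pklr -0.30. With the replicate number as a block, 14 genes and 0 of the 9 were called; equal numbers correlated at -0.43 to 0.15, 2 of 7 above 0.1, and 2 of 14 mice matched their own number best, so the numbers do not pair the mice. Depth limits Pdk4, with 1 to 49 counts per mouse, and Foxo1.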
